A study of Homo sapiens with 8 samples.

Results

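The 55 genes described here encode nuclear subunits of the mitochondrial respiratory chain: 36 of complex I, 7 of complex III, 9 of complex IV and 3 of the ATP synthase. They were chosen by name, and each name matched 1 Ensembl identifier among the 60230 genes of the count table. All 55 passed the filter on low counts, which left 13404 genes for testing, so no subunit was lost. RNA came from HepG2 cells, a human liver tumor line, that overexpressed CYP3A4, the main drug-metabolizing cytochrome P450 of the liver. In 4 groups of 2 samples each, the cells had received 0.2% DMSO, the solvent, or compound 4, compound 5 or compound 6 for a day. All groups thus carried the CYP3A4 transgene, and the cells were grown with blasticidin, a selection antibiotic. The compounds are phenolic antioxidants used in plastics, made of 2 phenol rings joined through 1 carbon. Compounds 4 and 6 share a methylene bridge and a methyl group on each ring, and differ in their bulky ring group, which is tert-butyl in compound 4 and cyclohexyl in compound 6. In compound 5 the bridge carbon carries a methyl group, and each ring carries 2 tert-butyl groups. Each compound was given at its own IC50, so the molar doses differed between compounds. The comparison asks whether transcripts of the respiratory chain changed under each compound, complex by complex.

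Complex I takes electrons from NADH, complex III passes them to cytochrome c, complex IV hands them to oxygen, and the ATP synthase uses the resulting proton gradient to make ATP. Complexes I, III and IV and the ATP synthase each combine subunits encoded in the nucleus with subunits encoded by mitochondrial DNA, so their assembly draws on both genomes. In complex I a conserved core carries the redox centers and pumps protons, and a large set of accessory subunits surrounds it. Hepatocytes are rich in mitochondria, while HepG2 cells in high-glucose medium rely strongly on glycolysis.

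The promoters of respiratory chain genes are known for binding sites of NRF1, of GABPA, which belongs to the ETS factors, of YY1 and of SP1. The promoters of 5 genes are shown, since these genes were lower with compound 5 and their promoters hold letters of such motifs. RefSeq promoter windows of 300 bases (250 before and 50 from the transcription start, GRCh38.p14) were given for 47 of the 55 genes. NDUFB5, NDUFB9, NDUFS5, NDUFC2, UQCRB, CYC1, COX6C and ATP5F1B were not among them. Each sequence runs 5′ to 3′ on the strand of the gene, and the capitals mark the motif. The first 3 begin 100 bases before the start, and the last 2 are the 30 bases around a motif that lies after the start.
NDUFA8 (chr9:122159774-122159879, minus strand; NRF1 motif on both strands across the start): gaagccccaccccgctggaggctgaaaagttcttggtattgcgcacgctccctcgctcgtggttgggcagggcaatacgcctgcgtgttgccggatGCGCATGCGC
NDUFS6 (chr5:1801307-1801406, plus strand; NRF1 motif): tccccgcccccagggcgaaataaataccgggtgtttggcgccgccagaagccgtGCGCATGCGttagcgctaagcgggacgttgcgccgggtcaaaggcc
UQCRQ (chr5:132866542-132866641, plus strand; ETS motif): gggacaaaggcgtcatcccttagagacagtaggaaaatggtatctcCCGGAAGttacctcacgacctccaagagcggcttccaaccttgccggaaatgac
NDUFA3 (chr19:54102865-54102894, plus strand; YY1 motif): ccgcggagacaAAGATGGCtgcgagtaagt
NDUFA6 (chr22:42090729-42090758, minus strand; YY1 motif): gatgctttggcAAGATGGCggggagcggcg
Both strands were searched. The NRF1 motif GCGCATGCG was in 6 of the 47 promoters (12.8%), against 2.1% of all 27305 promoters, and its shorter core GCGCATG, which every copy of the longer motif contains, was in 9 (19.1% against 4.67%). The ETS motif CCGGAAG was in 12 (25.5% against 10.7%), the YY1 motif AAGATGGC in 7 (14.9% against 3.03%) and the SP1 motif GGGCGG in 30 (63.8% against 44.6%). None of the motifs was found in 10 of the 47 windows, against 49.6% of all promoters. Of the 10 windows of genes that fell with compound 5, the NRF1 motif was in 2, the ETS motif in 1, the YY1 motif in 2 and the SP1 motif in 5, and NDUFA5, NDUFA12 and NDUFB1 had none of them. In the other 37 windows, these 4 motifs were in 4, 11, 5 and 25. A match is a run of letters and does not show that a factor binds there.

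The libraries held 9472261 to 13308975 counts, of which the 55 genes took 0.538% to 0.703% and the genes encoded by mitochondrial DNA 4.91% to 6.21%. Even the lowest count of a subunit in any library was 143. Hepatocyte markers were present in every library, ALB among them. Of 8 markers of other cell types, PTPRC, CD3E and COL1A2 were at 0 in all 8 libraries, COL1A1 reached at most 1 count, and the summed level of the 8 was 42.3 and 29.7 CPM (counts scaled by TMM to a common library size, replicate 1 before replicate 2 here and throughout) with DMSO, 66.3 and 65.5 under compound 4, 45.0 and 39.1 under compound 5, and 56.0 and 54.4 under compound 6. CD68, a lysosomal protein of macrophages that other cells also express, made up most of this sum. CYP3A4 was present in all libraries, at 170.5 to 421 CPM, and was higher with compound 5 than with DMSO (log2 fold change 0.97 ± 0.13 (SE), edgeR adjusted p = 0.00072). The column names mark replicate 1 of compound 4 and replicate 1 of compound 5 as merged, and none of the other libraries. The replicates of compound 4 lay furthest apart, with a chi-square of 17.2 per degree of freedom against 5.51 to 9.07 in the other groups. In bulk RNA, fewer cells and less RNA per cell cannot be told apart, and the scaling makes every value a share of the library.

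With DMSO, the subunits spanned a wide range of levels per transcript length. In complex I the lowest level was that of NDUFV3, an accessory subunit of the NADH-oxidizing part, at 14.8 CPM per kilobase, and the highest that of NDUFC2, a subunit of the membrane arm, at 314, although 74.95% of the NDUFC2 transcript is shared with the read-through gene NDUFC2-KCTD14. In complex III the levels went from 28.4 for UQCRFS1, the Rieske iron-sulfur protein, to 296 for UQCRH, the hinge protein that helps cytochrome c to dock. COX6C was the lowest of complex IV at 84.5 and COX4I1, the subunit through which ATP inhibits the enzyme, the highest at 375. In the ATP synthase, ATP5F1C, the rotating gamma subunit, was at 141, ATP5F1A, the alpha subunit, at 275 and ATP5F1B, the catalytic beta subunit, at 391. The alpha and beta subunits, of which the enzyme holds 3 copies each, thus had the higher levels per length, and their replicates did not overlap with those of ATP5F1C.

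**Figure D1:**
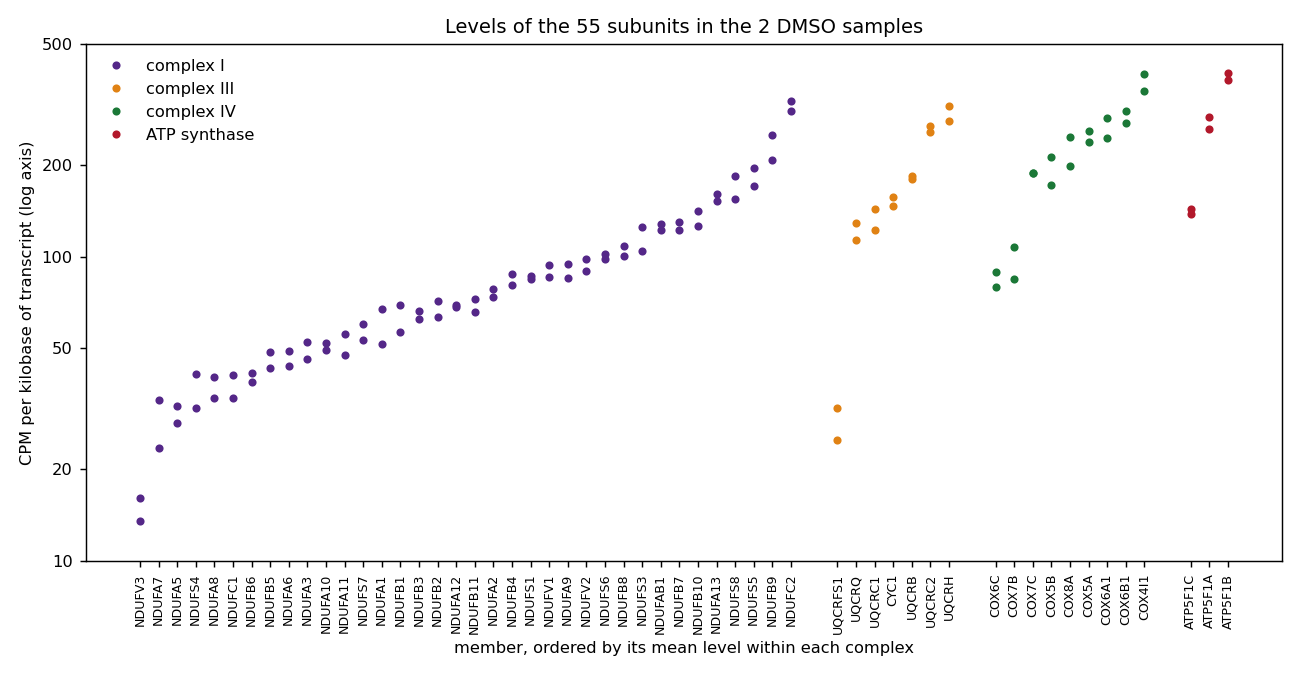
Level of each of the 55 subunits in the 2 DMSO samples, as TMM-scaled CPM per kilobase of a representative transcript on a log axis; each point is 1 sample and the genes are ordered within their complex. Complex I genes range from 14.8 (NDUFV3) to 314 (NDUFC2) as means of both samples, and most lie below the genes of complex IV and the ATP synthase.

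With compound 5, 12 of the 55 subunits were lower than with DMSO and none was higher, at an edgeR quasi-likelihood adjusted p under 0.05. This is 21.8% of the subunits, against 14.2% of all tested genes that were lower and 13.9% that were higher with compound 5. The median log2 fold change of the 55 was -0.22, against -0.03 over all tested genes, and 52 of the 55 were below 0. In 37 of the 55, both compound 5 samples lay below both DMSO samples, which was so for 37.3% of all tested genes, and in none did both lie above, which was so for 32.9% of all tested genes. The called genes were 11 of the 36 complex I subunits and 1 of the 7 complex III subunits. No subunit of complex IV (9 genes, unadjusted p under 0.05 in 2, DESeq2 0) or of the ATP synthase (3 genes, unadjusted p under 0.05 in 1, DESeq2 0) passed in edgeR. With DESeq2 in place of edgeR, 8 of the 12 passed, and NDUFA3, NDUFA5, NDUFA12 and NDUFS6 did not. The median changes were -0.26 in complex I, -0.12 in complex III, -0.22 in complex IV and -0.13 in the ATP synthase.

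Inside complex I, the accessory subunits were the called ones. None of the 6 core subunits measured here, NDUFS1, NDUFS3, NDUFS7, NDUFS8, NDUFV1 and NDUFV2, passed with compound 5 in edgeR (none at an unadjusted p under 0.05, none with DESeq2), and their median was -0.04. Of the 13 NDUFA accessory subunits, with NDUFAB1, 5 were lower and the median was -0.32, and of the 13 NDUFB and NDUFC subunits, which sit mostly in the membrane arm, 4 were lower and the median was -0.32. Of the 4 remaining accessory subunits NDUFS4, NDUFS5, NDUFS6 and NDUFV3, 2 were lower. The difference between core and accessory subunits was not tested.

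**Figure D2:**
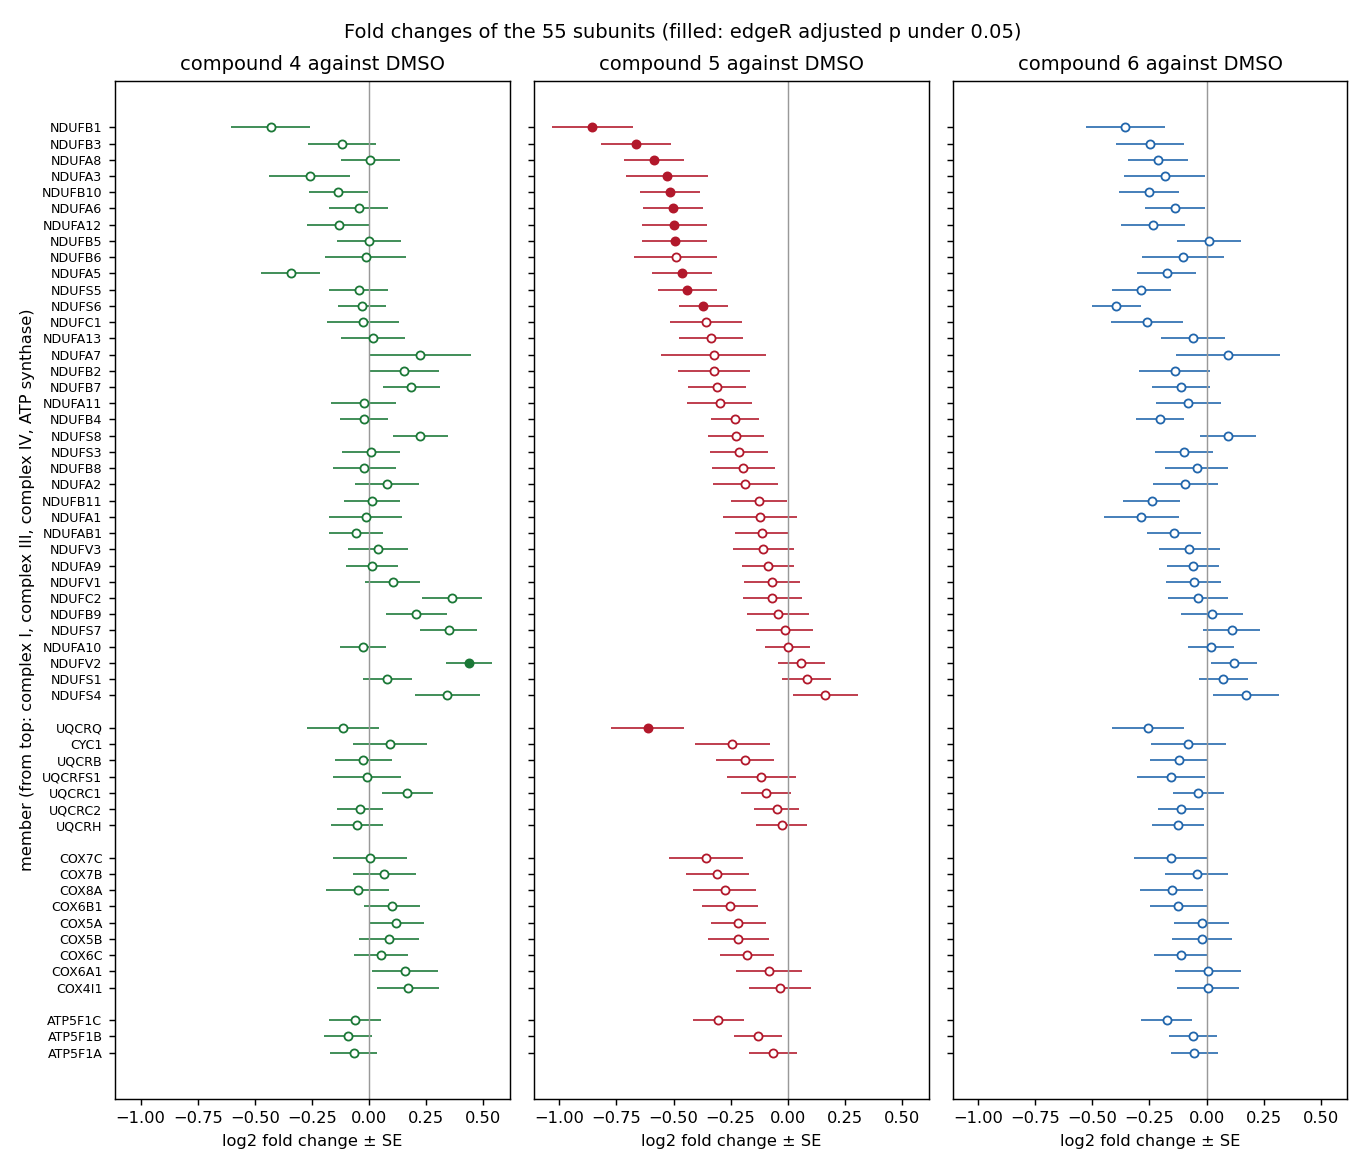
Log2 fold change of each subunit against DMSO (points) with its SE (bars) for compounds 4, 5 and 6; filled points have an edgeR adjusted p under 0.05, and within each complex the genes are ordered by their change with compound 5. With compound 5, 52 of 55 points lie left of 0 and 12 are filled, while with compound 4 the points spread around 0 and only NDUFV2 is filled.

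The largest fall was that of NDUFB1 (ENSG00000183648, chr14:92116122-92121917), a small subunit of the distal membrane arm. Its levels were 25.6 and 31.5 CPM with DMSO, 17.8 and 24.6 under compound 4, 14.6 and 17.0 under compound 5, and 21.7 and 22.98 under compound 6. The compound 5 samples were the lowest of all 8, and the change was -0.86 ± 0.18 (SE), edgeR adjusted p = 0.0057, or 44.8% lower. Both compound 4 samples were also below both DMSO samples, with a change of -0.43 ± 0.17 (SE) that did not pass (edgeR adjusted p = 0.14). Of the NDUFB1 transcript, 24.3% is shared with other genes, the largest part, 11.8%, with the pseudogene NDUFB1P1, which had no counts.

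NDUFB3 (ENSG00000119013, chr2:201071433-201085750), a membrane arm subunit at the tip of the distal part, was at 36.2 and 34.1 CPM with DMSO, 27.6 and 37.0 under compound 4, 20.6 and 23.6 under compound 5, and 29.9 and 29.3 under compound 6. Its compound 5 samples lay below all other samples, 37.0% under the DMSO mean in the fit (-0.67 ± 0.15 (SE), edgeR adjusted p = 0.0093). NDUFB5 (ENSG00000136521, chr3:179604690-179627647), of the same arm, was at 46.1 and 41.0 CPM with DMSO and 32.3 and 29.5 with compound 5 (-0.49 ± 0.14 (SE), edgeR adjusted p = 0.025), and its values with compounds 4 (39.3 and 47.5) and 6 (48.2 and 39.8) overlapped with DMSO. NDUFB10 (ENSG00000140990, chr16:1959508-1961975), which has paired cysteines and faces the intermembrane space, had 99.5 and 89.1 CPM with DMSO and 69.7 and 62.2 with compound 5 (-0.52 ± 0.13 (SE), edgeR adjusted p = 0.015). With compound 4 it was at 81.8 and 89.9 and with compound 6 at 87.9 and 70.6 CPM, between both other groups in 3 of these 4 samples.

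Among the NDUFA subunits, NDUFA8 changed most. NDUFA8 (ENSG00000119421, chr9:122144058-122159819), another subunit with paired cysteines on the intermembrane space side and the first of the promoters shown above, was at 34.1 and 28.9 CPM with DMSO, 29.5 and 33.5 under compound 4, 20.6 and 21.2 under compound 5, and 27.3 and 26.9 under compound 6. With compound 5 it was 33.4% lower (-0.59 ± 0.13 (SE), edgeR adjusted p = 0.0087), with no overlap between the compound 5 samples and any other sample. NDUFA3 (ENSG00000170906, chr19:54102728-54109257), a short membrane protein near the bend of complex I, was at 19.9 and 17.5 CPM with DMSO, 16.9 and 14.3 under compound 4, 14.7 and 11.3 under compound 5, and 18.4 and 14.7 under compound 6. It passed with compound 5 by a narrow margin (-0.53 ± 0.18 (SE), edgeR adjusted p = 0.049), did not pass with RLE scaling (edgeR adjusted p = 0.058) or with DESeq2 (adjusted p = 0.15), and its higher compound 5 sample was level with the lower samples of compounds 4 and 6. NDUFA6 (ENSG00000184983, chr22:42085525-42090955), the subunit that holds an acyl carrier protein to the matrix arm, had 57.9 and 51.9 CPM with DMSO and 39.3 and 38.1 with compound 5 (-0.50 ± 0.13 (SE), edgeR adjusted p = 0.018), below all samples of the other groups.

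NDUFA5 (ENSG00000128609, chr7:123536997-123558255), a subunit of the matrix arm, lay below DMSO with compound 4 too, as NDUFB1 and NDUFA3 did. Its levels were 42.6 and 48.7 CPM with DMSO, 35.1 and 36.9 under compound 4, 32.5 and 33.7 under compound 5, and 44.7 and 36.4 under compound 6. The fall with compound 5 was called (-0.46 ± 0.13 (SE), edgeR adjusted p = 0.023, DESeq2 adjusted p = 0.057), and that with compound 4, -0.34 ± 0.13 (SE), was not (edgeR adjusted p = 0.12). NDUFA12 (ENSG00000184752, chr12:94897055-95003770), also of the matrix arm, was at 33.9 and 33.3 CPM with DMSO, 26.5 and 34.6 under compound 4, 24.0 and 23.6 under compound 5, and 29.4 and 27.7 under compound 6. Its DMSO and compound 5 samples were tight, and the change with compound 5 was -0.50 ± 0.14 (SE), edgeR adjusted p = 0.025, a call that DESeq2 did not make (adjusted p = 0.065).

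NDUFS5 (ENSG00000168653, chr1:39026318-39034636), a membrane arm subunit with paired cysteines, had 106 and 93.0 CPM with DMSO and 72.9 and 74.0 with compound 5 (-0.44 ± 0.13 (SE), edgeR adjusted p = 0.028). NDUFS6 (ENSG00000145494, chr5:1801400-1816605), a zinc-binding subunit of the NADH-oxidizing part, showed nearly the same levels with compounds 5 and 6. It was at 55.9 and 54.1 CPM with DMSO, 51.2 and 56.5 under compound 4, 44.3 and 40.9 under compound 5, and 41.9 and 41.7 under compound 6. Its change was -0.37 ± 0.11 (SE), edgeR adjusted p = 0.027, with compound 5, and -0.40 ± 0.11 (SE), edgeR adjusted p = 0.065, with compound 6, so that the second was as large but did not pass. The call with compound 5 was lost with DESeq2 (adjusted p = 0.097) and without a filter on low counts (edgeR adjusted p = 0.077). In complex III, UQCRQ (ENSG00000164405, chr5:132866560-132868031), a small subunit at the cytochrome b subunit, was at 75.5 and 66.7 CPM with DMSO, 55.8 and 75.3 under compound 4, 42.1 and 50.6 under compound 5, and 63.9 and 55.2 under compound 6. With compound 5 it was 34.7% lower (-0.61 ± 0.16 (SE), edgeR adjusted p = 0.016), and both compound 5 samples lay below all others.

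**Figure D3:**
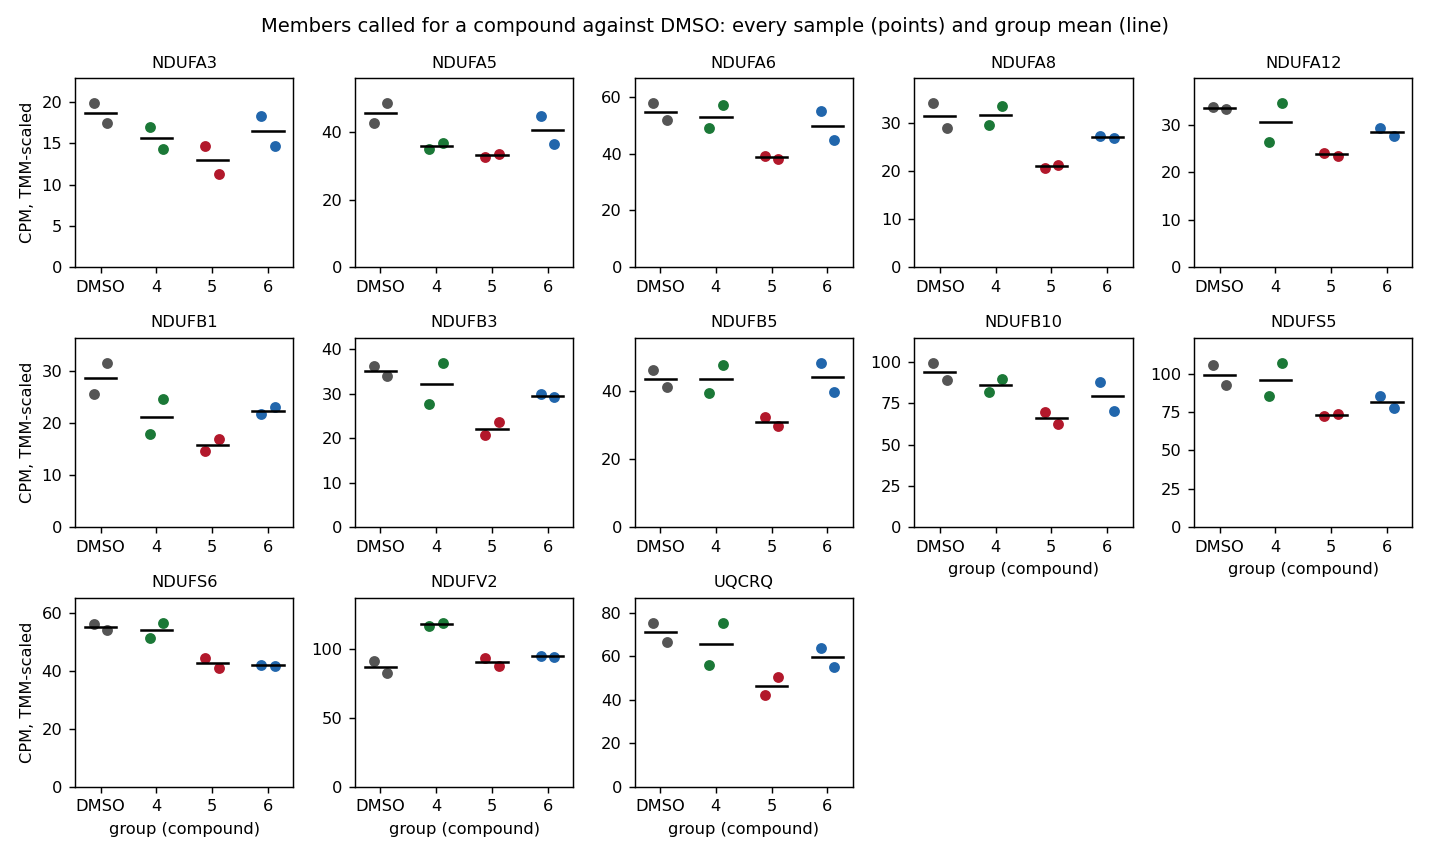
TMM-scaled CPM of the 13 subunits with an edgeR adjusted p under 0.05 for a compound against DMSO, in each sample (points; left replicate 1, right replicate 2) with the group mean (line); axes start at 0. In the 12 subunits called with compound 5 both its samples lie below both DMSO samples, and NDUFV2 was called higher with compound 4.

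The subunits that were not called covered changes with compound 5 from -0.49 to 0.16. NDUFB6, of the distal membrane arm, had the lowest of these, with 31.5 and 29.4 CPM with DMSO and 19.1 and 24.2 with compound 5 (edgeR adjusted p = 0.066). NDUFS4, an accessory subunit whose loss causes Leigh syndrome, had the highest, with 27.9 and 21.5 CPM with DMSO and 28.1 and 27.1 with compound 5 (0.16 ± 0.14 (SE), edgeR adjusted p = 0.41). In complex III, UQCRH was closest to 0 (-0.03 ± 0.11 (SE)), at 189 and 168 CPM with DMSO and 186 and 165 with compound 5, although 43.9% of its transcript is shared with UQCRHL. In complex IV, COX7C had the lowest change (-0.36 ± 0.16 (SE), edgeR adjusted p = 0.12), with 125 and 126 CPM with DMSO and 92.8 and 103 with compound 5. COX4I1 had the highest of its complex (-0.03 ± 0.14 (SE)), with 317 and 278 and 278 and 302 CPM. All 9 genes of complex IV were below 0, and in 7 of them both compound 5 samples lay below both DMSO samples, as in 37.3% of all tested genes. ATP5F1C was at 155 and 149 CPM with DMSO and 117 and 129 with compound 5 (-0.30 ± 0.11 (SE), edgeR adjusted p = 0.066), a larger fall than that of ATP5F1B (-0.13 ± 0.10 (SE)) or ATP5F1A (-0.07 ± 0.10 (SE)), with a difference that was not tested.

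The count of 12 depended on the libraries and on a joint correction for GC content and transcript length. It was smaller in each fit without a DMSO or a compound 5 sample, and so was the count of calls over all tested genes. The median of the 55 stayed between -0.13 and -0.28 in all 8 fits that each left out 1 sample. With an offset for GC content and length of the transcript, 6 of the 12 remained, NDUFA6, NDUFA8, NDUFB1, NDUFB3, NDUFB10 and UQCRQ, and the median of the 55 moved from -0.22 to -0.06. Over all tested genes, calls in either direction rose from 3763 to 4335 with this offset. Most subunits have short transcripts. Of the 40 subunits under 1000 nt, 10 were lower with compound 5 and the median was -0.24, and of the 2242 tested genes under 1000 nt, 15.6% were lower and the median was -0.14. Of the 15 subunits of 1000 nt or more, 2 were lower and the median was -0.11, against 14% and -0.01 for the 11083 tested genes of this length. Across the 55 subunits, which share the libraries, Spearman's rho of the change with compound 5 was 0.39 with transcript length, 0.54 with the mean level and 0.0013 with GC content. In a split made after the values were seen, 10 of the 27 subunits with the lower mean CPM were called and 2 of the other 28. Length and GC content were not corrected for separately, and what part length has in the changes was not tested.

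**Figure D4:**
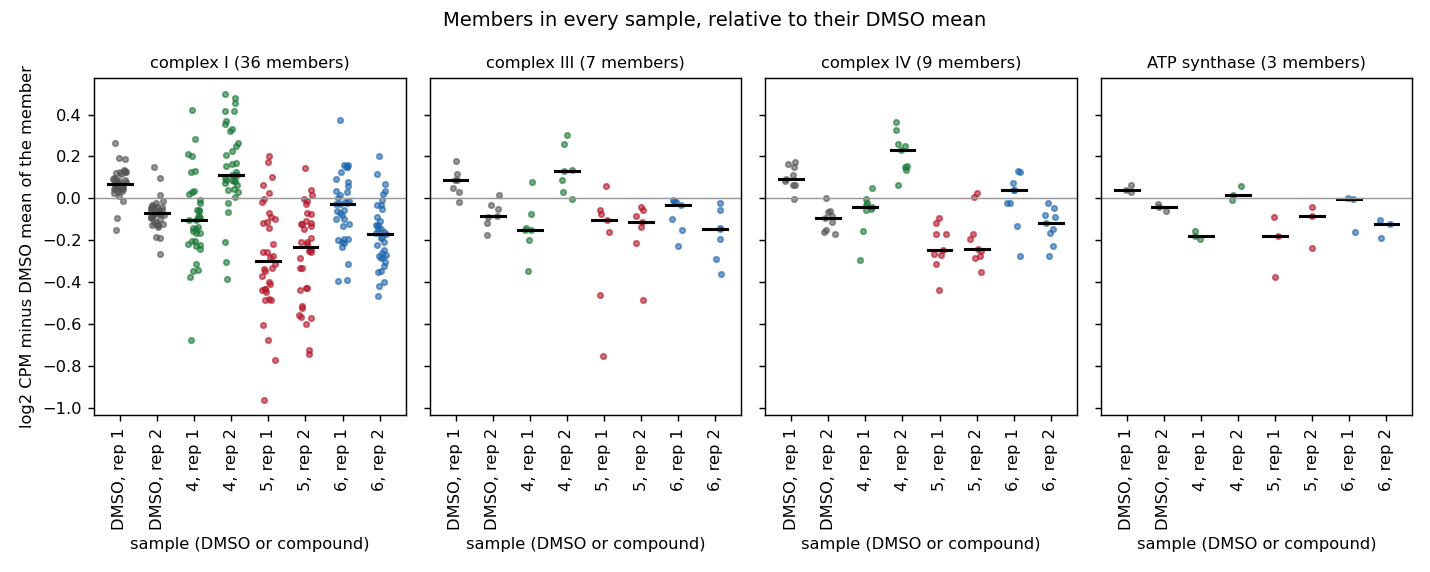
Log2 CPM of every subunit in every sample minus its mean in the 2 DMSO samples, by complex; points are genes and black lines medians. In complex I the medians of both compound 5 samples (-0.30 and -0.23) lie below those of both DMSO samples (0.07 and -0.07), and those of compound 4 lie on either side of 0 (-0.10 and 0.11).

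Compound 4 left the respiratory chain subunits on both sides of DMSO. Only NDUFV2 was called higher (1 of 55, against 6.50% of all tested genes), and none was called lower (against 5.42% of all tested genes; 2 at an unadjusted edgeR p under 0.05 and 0 with DESeq2). The median of the 55 was 0.00, with 28 above and 27 below 0, and it was 0.13 without compound 4 replicate 1 and -0.10 without compound 4 replicate 2, where 1 subunit was called lower. Both compound 4 samples were above both DMSO samples in 6 subunits (27.5% of all tested genes) and below them in 3 (27.1%). All 6 subunits without overlap on the higher side were of complex I, 4 of them core subunits.

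NDUFV2 (ENSG00000178127, chr18:9102630-9134345), a core subunit with an iron-sulfur cluster in the NADH-oxidizing part, was at 91.5 and 83.2 CPM with DMSO, 117 and 119 under compound 4, 93.8 and 88.2 under compound 5, and 95.2 and 94.7 under compound 6. The compound 4 samples were the highest of the 8 and agreed closely, and the change was 0.44 ± 0.10 (SE), edgeR adjusted p = 0.019. Of its transcript, 82.3% is shared with the gene ENSG00000265257, which had a mean of 0.056 CPM, so the split of the reads between both is uncertain. This call was lost without DMSO replicate 1 or DMSO replicate 2, where fewer of all tested genes were called as well. Without compound 4 replicate 1, more subunits and more of all tested genes were called. Other core subunits were higher without passing. NDUFS7, which carries the iron-sulfur cluster next to ubiquinone, had 62.5 and 55.1 CPM with DMSO and 67.6 and 82.0 with compound 4 (0.35 ± 0.12 (SE), edgeR adjusted p = 0.095), and NDUFS8, another iron-sulfur subunit, had 64.8 and 54.4 and 65.0 and 74.1 (0.22 ± 0.12 (SE), edgeR adjusted p = 0.27). The 6 core subunits had a median of 0.16, and all 6 were above 0.

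The lowest changes of complex I with compound 4 were those of NDUFB1 and NDUFA5, given above. In complex III the changes went from -0.11 for UQCRQ to 0.17 for UQCRC1, a large structural subunit of this complex, which was at 285 and 243 CPM with DMSO and 278 and 315 with compound 4. In complex IV, 8 of the 9 subunits were above 0, from -0.05 for COX8A (126 and 100.5 CPM with DMSO, 101 and 118 with compound 4) to 0.17 for COX4I1 (287 and 383 with compound 4). The ATP synthase subunits lay between -0.09 and -0.06, with ATP5F1B at 738 and 699 CPM with DMSO and 635 and 715 with compound 4. In each of these 5 genes, replicate 1 of compound 4 was lower than replicate 2.

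With compound 6, no subunit was called in either direction. At an unadjusted edgeR p under 0.05 there was 1 that was lower, NDUFS6, and none that was higher, and DESeq2 called 0. Without compound 4 replicate 1 or compound 4 replicate 2, samples outside this comparison that enter the fit through the shared scaling and spread, 1 subunit was called lower. Over all tested genes, 1.60% were called lower and 2.80% higher. The median of the 55 was -0.10, with 44 of 55 below 0. In 20 subunits both compound 6 samples lay below both DMSO samples (26.6% of all tested genes), 14 of them in complex I, 3 in complex III, 2 in complex IV and 1 in the ATP synthase. In 1 subunit both lay above both DMSO samples, as in 3523 of the 13404 tested genes. In complex I the changes went from -0.40 for NDUFS6 to 0.17 for NDUFS4 (27.3 and 28.2 CPM with compound 6). All 7 subunits of complex III were below 0, from -0.26 for UQCRQ to -0.04 for UQCRC1. Complex IV spanned -0.15 for COX7C (104 and 122 CPM) to 0.01 for COX6A1, a subunit with 49.5% of its transcript shared with other genes, at 164 and 140.1 CPM with DMSO and 166 and 139.7 with compound 6. The 3 ATP synthase subunits lay between -0.17 and -0.05, with ATP5F1A at 559 and 512 CPM with DMSO and 534 and 499 with compound 6. The 3 compounds were set against the same 2 DMSO samples.

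The compounds were also compared with each other, in 3 pairs, each at its own IC50. Compound 5 was lower than compound 4 in 7 subunits, all of complex I, and higher in none. Over all tested genes, 7.04% were lower and 6.91% higher with compound 5 than with compound 4. The 7 were NDUFA8 (-0.59 ± 0.13 (SE), edgeR adjusted p = 0.019), NDUFB3 (-0.55 ± 0.15 (SE)), NDUFB7 (-0.49 ± 0.13 (SE)), NDUFB5 (-0.49 ± 0.14 (SE)), NDUFA6 (-0.46 ± 0.13 (SE)), NDUFS8 (-0.45 ± 0.12 (SE)) and NDUFV2 (-0.38 ± 0.10 (SE)). Without compound 4 replicate 1, which had the lower levels of its group, more subunits were called, and more of all tested genes. Without compound 4 replicate 2, either compound 5 sample or either DMSO sample, fewer subunits and fewer of all tested genes were called. What part single samples have in these counts was not tested. DESeq2 called 4, and 1 was left with the offset for GC content and length. With the day of the labels as a block, NDUFA6 (edgeR adjusted p = 0.055) and NDUFB5 (edgeR adjusted p = 0.053) no longer passed. NDUFB7, which has paired cysteines and lies at the tip of the membrane arm, was at 69.0 and 65.0 CPM with DMSO, 67.9 and 84.4 under compound 4, 50.5 and 57.5 under compound 5, and 63.5 and 60.4 under compound 6. NDUFS8 was at 49.7 and 52.1 CPM with compound 5, and neither of these was called against DMSO for either compound.

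Compound 5 was lower than compound 6 in 1 subunit, NDUFB5 (-0.51 ± 0.14 (SE), edgeR adjusted p = 0.048), and higher in none, where 5.16% of all tested genes were lower and 4.76% higher. This call was lost with the block (edgeR adjusted p = 0.06). It was also lost without any 1 of DMSO replicate 1, DMSO replicate 2, either compound 5 replicate or compound 6 replicate 1. In those fits fewer of all tested genes were called. Without either compound 4 replicate, more subunits and more of all tested genes were called. Compounds 4 and 6, which differ in tert-butyl against cyclohexyl, differed in no subunit in edgeR (4 higher with compound 4 at an unadjusted p under 0.05, 0 with DESeq2), and only 0.0224% of all tested genes were called higher and 0.0224% lower between them. The differences of the 55 went from -0.17 to 0.40, with a median of 0.13. For NDUFC2 the difference was 0.40, with a 95% interval of 0.11 to 0.69, for NDUFS6 0.37 (0.13 to 0.60) and for COX4I1 0.17 (-0.14 to 0.47). The upper ends of these intervals are as large as changes called with compound 5, so that a missing call does not show that both compounds act alike.

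Other genes of the pathway were taken from lists that were chosen with earlier results of these data known. Of 17 further nuclear subunits of the same complexes, 7 were lower with compound 5 (41.2%, against 14.2% of all tested genes), none was higher (against 13.9%), and the median was -0.40, against -0.03 over all tested genes. The 3 with the largest changes were ATP5MC1, of the rotor ring (-0.56 ± 0.14 (SE), edgeR adjusted p = 0.013), ATP5PD, of the stator stalk (-0.56 ± 0.13 (SE), edgeR adjusted p = 0.0083), and ATP5F1E, the epsilon subunit (-0.55 ± 0.12 (SE), edgeR adjusted p = 0.0063). ATP5F1E was at 165 and 156 CPM with DMSO, 128 and 158 under compound 4, 113 and 106 under compound 5, and 127 and 121 under compound 6. Of the 4 subunits of complex II, SDHC, a membrane anchor, was lower (-0.43 ± 0.13 (SE), edgeR adjusted p = 0.033). With compounds 4 and 6, none of the 17 nor of the 4 was called in edgeR or in DESeq2, and at an unadjusted edgeR p under 0.05 there were 0 with compound 4 and 3 of the 17 with compound 6. Of 7 tissue-restricted isoforms, 6 reached at most 1 count in any library, and NDUFA4L2 had at most 13.

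Of the 13 subunits encoded by mitochondrial DNA, 1 was higher with compound 5 (7.69%, against 13.9% of all tested genes) and none lower, and their median was 0.02. This was MT-CYB, cytochrome b of complex III, with 1458 and 1537 CPM with DMSO, 1576 and 1414 under compound 4, 2897 and 2335 under compound 5, and 1510.0 and 1547 under compound 6 (0.80 ± 0.12 (SE), edgeR adjusted p = 0.0011). Both compound 5 samples stood above all others. The remaining 12 lay between -0.15 and 0.31 without passing in edgeR, and DESeq2 called 1 of them higher, MT-ND1, a membrane subunit of complex I (edgeR change 0.31, adjusted p = 0.10, DESeq2 adjusted p = 0.039), while all 7 nuclear subunits of complex III lay below 0. With compounds 4 and 6 none of the 13 was called in edgeR or DESeq2, and the medians were 0.04 and 0.17. With compound 6, 12 of the 13 were above 0. In 9 both compound 6 samples lay above both DMSO samples, as in 3523 of the 13404 tested genes.

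Most assembly factors that changed with compound 5 were lower, where 14.2% of all tested genes were lower and 13.9% higher. Of 14 factors of complex I, 3 were lower (21.4%): TIMMDC1 (-0.48 ± 0.15 (SE), edgeR adjusted p = 0.032), ACAD9 (-0.41 ± 0.13 (SE)) and TMEM126B (-0.40 ± 0.13 (SE)), which take part in building the membrane arm, and the median was -0.35. DESeq2 called none of these 3 and called NDUFAF8 instead (DESeq2 adjusted p = 0.042). Of 6 factors of complex III, UQCC2 was lower (-0.54 ± 0.16 (SE), edgeR adjusted p = 0.032), a call that DESeq2 did not make (adjusted p = 0.069). Of 19 factors of complex IV, 7 were lower (36.8%) and 1 was higher, and with DESeq2 3 were lower and 1 was higher. COA3 (-0.70 ± 0.14 (SE), edgeR adjusted p = 0.0046) and COA5 (-0.56 ± 0.13 (SE), not called by DESeq2) were among the lower, and COX10, a heme A synthesis enzyme, was the higher (0.59 ± 0.16 (SE), edgeR adjusted p = 0.022). COX11, which brings copper to the enzyme, was lower with compound 4 (-0.54 ± 0.11 (SE), edgeR adjusted p = 0.0091) and with compound 5 (-0.41 ± 0.11 (SE), edgeR adjusted p = 0.015), at 109 and 102 CPM with DMSO, 73.5 and 71.6 under compound 4, 78.1 and 79.9 under compound 5, and 90.4 and 80.0 under compound 6. Of 3 factors of the ATP synthase, ATPAF1 was lower with compound 5 (-0.64 ± 0.13 (SE), edgeR adjusted p = 0.0047). Of 78 proteins of the mitochondrial ribosome, 16 were lower with compound 5 (20.5%) and none higher, with a median of -0.21, and 1, MRPL39, was lower with compound 6 (1.28%, against 1.60% of all tested genes), a call lost with the block (edgeR adjusted p = 0.051). DESeq2 called 10 of the 78 lower with compound 5 and 0 with compound 6.

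Among regulators of mitochondrial biogenesis the called changes with compound 5 were upward. Of 12 that were tested, 3 were higher with compound 5 (25%, against 13.9% of all tested genes) and none lower: PPARGC1A, the coactivator PGC-1α (0.90 ± 0.15 (SE), edgeR adjusted p = 0.0018), ESRRA, a nuclear receptor that acts with it (0.57 ± 0.16 (SE), edgeR adjusted p = 0.023), and PPRC1, a related coactivator (0.56 ± 0.12 (SE), edgeR adjusted p = 0.0077). PPARGC1A was at 25.3 and 29.2 CPM with DMSO, 38.4 and 28.8 under compound 4, 52.7 and 48.8 under compound 5, and 33.7 and 35.2 under compound 6. ESRRA was at 76.0 and 65.3 CPM with DMSO and 95.3 and 109 with compound 4, where edgeR called no regulator higher and DESeq2 called 1. At an unadjusted edgeR p under 0.05, 2 of the 12 were lower with compound 5. TFAM, which packages and transcribes mitochondrial DNA, was lower with compound 4 (-0.37 ± 0.10 (SE), edgeR adjusted p = 0.041), a call that was lost with the block (edgeR adjusted p = 0.053). TFAM was at 87.4 and 96.5 CPM with DMSO and at 77.3 and 76.7 with compound 5, without being called. NRF1 and GABPA, whose motifs were counted above, were at 17.6 and 16.3 and at 16.6 and 17.2 CPM with DMSO, at 16.2 and 17.7 and at 16.2 and 15.5 with compound 5. NRF1 overlapped between these groups, and GABPA was slightly lower without passing (edgeR adjusted p = 0.69). Of 8 mitochondrial chaperones and proteases, 4 were higher with compound 5 (50%, against the same 13.9%), HSPA9 (0.55 ± 0.12 (SE), edgeR adjusted p = 0.0065), LONP1 (0.47 ± 0.14 (SE)) and YME1L1 (0.41 ± 0.11 (SE)) most. The tricarboxylic acid cycle (1 higher and 2 lower of 13) and the import machinery with the porins (1 higher and 1 lower of 11) went both ways, against 13.9% higher and 14.2% lower of all tested genes, and DESeq2 did not call the lower gene of the import list, VDAC3 (adjusted p = 0.053).

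The hepatocyte markers moved as well. Of 8, 3 were lower and 1 higher with compound 4, 3 lower with compound 5 and 2 lower with compound 6, where 5.42%, 14.2% and 1.60% of all tested genes were lower and, with compound 4, 6.50% higher, and their summed level was 41160 and 39350 CPM with DMSO, 30760 and 30830 under compound 4, 32830 and 32620 under compound 5, and 37690 and 31340 under compound 6. CD68 (log2 fold change 0.80 ± 0.15 (SE), edgeR adjusted p = 0.0079) and PDGFRB, a receptor of stromal cells (1.80 ± 0.35 (SE), edgeR adjusted p = 0.0086), were higher with compound 4. With compound 6 both also lay above both DMSO samples. There edgeR called neither, and DESeq2 called 1 of the 2. PDGFRB was low in every library, at no more than 8.55 CPM. The part of these markers in the changes of the subunits was not tested.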

How the data were processed

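RNA of 8 samples, 2 each of DMSO and of compounds 4, 5 and 6, was sequenced from directional poly(A) libraries. The authors checked reads with FastQC 0.12.0, quantified them with Salmon 1.5.0 on GENCODE transcripts (GRCh38) and summed them to genes, and the submitters' notes also name DESeq2 1.38.3. The deposited values are estimated counts, whole after rounding and without any scaling. Whether the strand was used in the quantification is not given in the sources used here.

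The test was edgeR 4.0.16 in R 4.3.3 (TMM, filterByExpr, quasi-likelihood test on all 8 samples in 1 fit) and Benjamini-Hochberg adjustment over the 13404 genes tested, with a cutoff of 0.05. CPM are edgeR's counts scaled to a common library size with the TMM factors. Intervals are 95% intervals. Lengths, GC content and shared 31-mers came from GENCODE 29 (GRCh38), an older release than the one the authors quantified on, for a representative transcript of median length. This transcript need not be the one the cells express, so lengths and levels per kilobase are approximate. The alternatives were other scalings, DESeq2 1.42.0, other filters, a fit of only the groups compared, a cutoff of 0.01, an offset for GC content and length (loess), only subunits with under 10% shared 31-mers, the replicate block and leaving out each sample. The script was tested on simulated data. Subunits were described sample by sample where called against DMSO or at the end of the range of their complex. NDUFB6, NDUFB7, NDUFS7, NDUFS8, NDUFC2 between compounds 4 and 6, NRF1 and GABPA were named after their values were seen. The subunits and lists were chosen with earlier results of these data known.

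The labels mark the samples of a group as day 1 and day 2 under a tag for time. The study's methods give a single exposure time and 2 replicates a group, so the day was read as that of the replicate and gave the block. Had it been a time point, each group would hold 1 sample a time. Deviations of same-numbered samples correlated between -0.083 and 0.16 over the 13404 genes and between 0.096 and 0.695 over the 55 subunits, most between compounds 4 and 5, whose replicate 1 libraries are the merged ones. The sources used here give the day but do not state that the replicates were separate cultures, so p-values measure the spread between these samples, part of which may be technical.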

Additional observations from a re-analysis of the deposited data

How the results depend on the processing

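No fold change of a called subunit changed sign in the alternatives, and neither did a median of the subunits or of a complex with compound 5. With compound 4 the median of the 55, near 0, took either sign, from -0.10 to 0.13, and medians of single complexes changed sign with compound 4 and with compound 6. The count of subunits lower with compound 5, 12 of the 55, became 21 with library size alone, 6 with the offset for GC content and length, 6 with this offset and the replicate block, and 3 at a cutoff of 0.01. DESeq2 gave 8, and NDUFA8, NDUFB1 and NDUFB3 passed in all 11 alternatives that keep every sample. The median of the 55 with compound 5 was -0.0559 with the offset and -0.0552 with the offset and the block. Upper-quartile and library-size scaling moved the median of all genes with compound 5 to -0.12 and -0.14. For compound 4, the 1 higher subunit became 2 without a filter and 0 with only the groups compared, at a cutoff of 0.01 and among subunits with under 10% shared 31-mers, and 1 was lower with the offset and the block. For compound 6, 1 was lower with the offset, with or without the block. The count of subunits lower with compound 5 than with compound 4, 7 of the 55, became 13 with upper-quartile scaling, 16 with library size, 4 with DESeq2 (3 of the 7 among them, NDUFA8, NDUFB7 and NDUFV2), 12 without a filter, 1 with the offset, 1 with the offset and the block, 1 with only the groups compared and 0 at 0.01. The 1 lower than with compound 6 became 0 with RLE scaling, DESeq2, the replicate block, the offset with or without the block and at 0.01, and 2 with only the groups compared.

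Fits that each left out 1 sample, in which the lone sample of a group is assumed to vary like the others, gave 0 to 17 lower with compound 5, 0 to 3 higher and 0 to 1 lower with compound 4, 0 to 1 lower with compound 6, 0 to 26 lower with compound 5 than with compound 4 and 0 to 3 lower than with compound 6. With the replicate block, NDUFA6 and NDUFB5 lost their calls between compounds, and the block changed no other call of a subunit. The causes of these shifts were not tested. With 2 samples a group, small changes cannot be detected, and what part counting error has in the spread was not tested.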
